A study of Homo sapiens with 2 samples.

Results

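Nucleotide synthesis and salvage enzymes make the precursors of DNA and RNA, and 38 of their genes are described here in A549, an established line of human lung adenocarcinoma cells. The 38 were the rows whose gene name stood in a list of such enzymes, joined between the libraries by gene identifier. All 38 had 1 row each and a value in both libraries, of 18786 genes with values in both, and all 38 passed the filter of a mean of at least 1 FPKM, which left 12342 genes. FPKM is the number of fragments scaled by transcript length and by library size, so levels of different genes can be compared per length. RNA was sequenced from 1 culture stably transduced with a retrovirus carrying ATOH8, a gene for a basic helix-loop-helix transcription factor, and from 1 culture stably transduced with the retroviral vector. Both cultures therefore carried a retroviral construct, and both were grown in DMEM with 10% fetal bovine serum and antibiotics. Which promoter drives ATOH8, and whether the cultures were clones or pools, is not given in the sources used here. With 1 library per group, every difference below is between these 2 libraries, has no replicate check and carries no p-value of its own.

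Purine nucleotides are built stepwise on activated ribose phosphate, with IMP as the first complete nucleotide, which is then converted to AMP or GMP. Pyrimidines are built as a free ring, orotate, which is then joined to the same activated ribose phosphate to give UMP. Ribonucleotide reductase turns ribonucleotides into deoxynucleotides for DNA, and thymidylate synthase makes the thymine nucleotide. Salvage kinases and phosphoribosyltransferases rebuild nucleotides from free bases and nucleosides. Several of these enzymes are known to be made mostly around S phase, and thymidylate synthase is the target of fluoropyrimidine drugs.

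The ATOH8 gene was listed at 182 FPKM in ATOH8 cells and 0.786 FPKM in vector cells, which fits the labels. The summed FPKM was 502502 in ATOH8 cells and 540101 in vector cells. MT-CO1 was not listed for the ATOH8 library and was left out of the next share, from the part and from the total. Mitochondrially encoded genes took 24.2% of the summed FPKM so counted in ATOH8 cells and 14.4% in vector cells. Over genes that averaged 5 FPKM or more, the median log2 fold was -0.36. Folds below are log2(ATOH8 + 1) minus log2(vector + 1), less this median, and are called relative; folds with nothing subtracted are called as deposited. Among the markers of epithelial and A549 cells, KRT8 stood at 2302 FPKM in ATOH8 cells and 2381 FPKM in vector cells, while KRT19 was near 0, at 0.070 FPKM in ATOH8 cells and 0.219 FPKM in vector cells. CDH1 was at 54.1 FPKM in ATOH8 cells and 15.4 FPKM in vector cells. Of 8 markers of other cell types, CD68 was at 15.4 FPKM in ATOH8 cells and 2.14 FPKM in vector cells. PTPRC, PECAM1 and VWF were listed in the ATOH8 file only, at 0.051 FPKM or less, and CD3E was in neither file. The fibroblast and pericyte markers DCN, LUM and PDGFRB reached at most 0.267 FPKM in ATOH8 cells and 0.332 FPKM in vector cells. In bulk RNA, fewer cells of a kind and less RNA per cell cannot be told apart, and the part of these shifts in the folds below was not tested.

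Most of the 38 enzymes stood lower in ATOH8 cells than in vector cells. Their median level was 30.2 FPKM in ATOH8 cells and 52.8 FPKM in vector cells. Their summed level was 1998 FPKM, or 0.398% of the library, in ATOH8 cells and 3104 FPKM, or 0.575%, in vector cells. The total behind the vector share includes MT-CO1, at 13096 FPKM, and the ATOH8 total does not, as MT-CO1 was not listed there. The median relative fold was -0.43, against 0.06 over all 12342 genes, and 28 of 38 lay below 0, or 73.7%, against 47.0% of all genes. A relative fold of at least 2-fold downward was reached by 4 members, PPAT, UMPS, ADSS and PFAS, while 9.46% of all genes did so. At least 2-fold upward stood 1 member, TYMP, with 12.8% of all genes. As deposited, 13 members were at least 2-fold lower and 0 were higher, against 19.0% and 6.24% of all genes. The added ones were RRM1, RRM2, TYMS, PAICS, TK1, DCK, HPRT1, CMPK1 and NME1. As deposited, 34 of 38 lay below 0, against 64.7% of all genes. The 2 scales differ by a constant, so a median below 0 on the relative scale had to be below 0 as deposited. Read against the background, 4 of 38 is close to the share of all genes on the relative scale, and the shift shows in the median rather than in large single folds. Of the 38, 13 have annotated pseudogenes, led by DUT with 8 and PAICS and IMPDH1 with 7 each, and reads could be split between these genes and their copies.

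**Figure D1:**
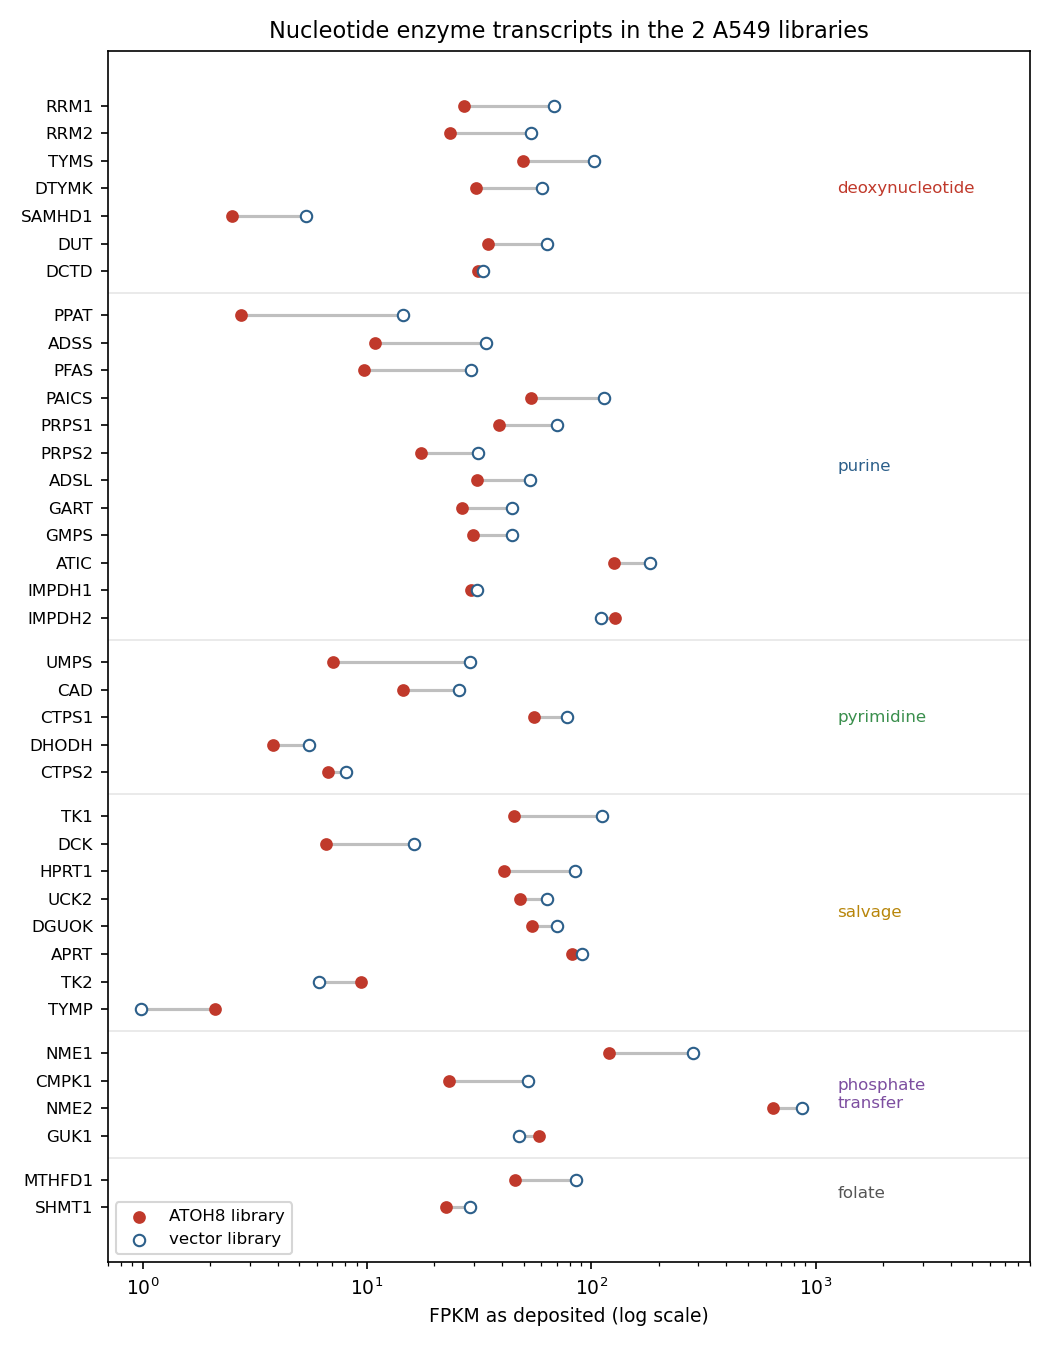
FPKM of the 38 enzymes in ATOH8 cells and vector cells, on a logarithmic axis, with 1 library each, so there are no error bars. Levels run from 2.10 FPKM for TYMP to 648 FPKM for NME2 in ATOH8 cells, and from 0.985 to 870 FPKM for the same genes in vector cells.

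The enzymes of deoxynucleotide supply had lower FPKM in ATOH8 cells in 7 of 7 cases, as had 64.7% of all genes. On the relative scale 6 of the 7 lay below the median gene, against 47.0% of all genes. Their median relative fold was -0.60, and their summed level was 199 FPKM in ATOH8 cells and 386 FPKM in vector cells, a ratio of 0.516. RRM1, the large subunit of ribonucleotide reductase, was at 27.2 FPKM in ATOH8 cells and 68.1 FPKM in vector cells, a relative fold of -0.94. RRM2, the small subunit whose protein is known to be limiting for the enzyme, was at 23.4 FPKM in ATOH8 cells and 53.9 FPKM in vector cells, a relative fold of -0.81. TYMS, thymidylate synthase, was at 49.7 FPKM in ATOH8 cells and 102.4 FPKM in vector cells, a relative fold of -0.67. All 3 were at least 2-fold lower as deposited, as were 19.0% of all genes. None was on the relative scale, against 9.46% of all genes. DTYMK, which phosphorylates the product of thymidylate synthase, was at 30.6 FPKM in ATOH8 cells and 60.6 FPKM in vector cells. DUT, which removes dUTP so that uracil stays out of DNA, was at 34.8 FPKM in ATOH8 cells and 63.3 FPKM in vector cells. SAMHD1, which breaks deoxynucleotides down, was at 2.50 FPKM in ATOH8 cells and 5.33 FPKM in vector cells. RRM1, RRM2, TYMS, DTYMK and DUT thus stood on the same side of the median gene as SAMHD1. DCTD, which deaminates dCMP toward thymidylate, was the 1 above the median gene, at 31.1 FPKM in ATOH8 cells and 32.8 FPKM in vector cells, a relative fold of 0.29 that was -0.07 as deposited and -0.03 after GC correction. The TYMS locus in the file also spans CLUL1, ENOSF1, TYMSOS and RP11-806L2.2, so their reads could be shared.

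The 6 MCM subunits, the replicative helicase that unwinds DNA at S phase, give a scale for these folds. Every one of the 6 was at least 2-fold lower in ATOH8 cells, against 9.46% of all genes. Their relative folds lay between -1.77 and -1.12, with a median of -1.52. The largest of the 7 deoxynucleotide folds downward, that of RRM1, lay above this range.

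Sequences around the RefSeq start sites of TYMS, DUT and PRPS2 are shown because each holds an E2F-type match near the start, and those of RRM2 and TK1 because each holds a CCAAT match. E2F factors and the CCAAT-binding factor NF-Y are known regulators of S-phase genes. Of the 36 members with start-site sequences, 13.9% held an E2F-type match, against 3.99% of 27305 genes. RRM1, RRM2 and TK1 held none. CCAAT was in 41.7% of the members, close to the 39.7% of all these genes. Whether either match bears on the folds was not tested. Capitals mark the match, on either strand, and the sequences are from RefSeq, GRCh38.p14, read along the gene's strand at chr18:657603-657632 (plus), chr15:48332159-48332188 (plus), chrX:12791389-12791418 (plus), chr2:10122660-10122689 (plus) and chr17:78187082-78187111 (minus), in the order listed.
TYMS: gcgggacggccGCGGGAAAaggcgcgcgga
DUT: gaaatttcggtTTTGGCGCgctccctgcgg
PRPS2: agccgccgcgcTTTCCCGCtcccgcagcag
RRM2: cggggcaccaaagCCAATgggaagggccgg
TK1: gggccggctcgtgATTGGccagcacgccgt

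**Figure D2:**
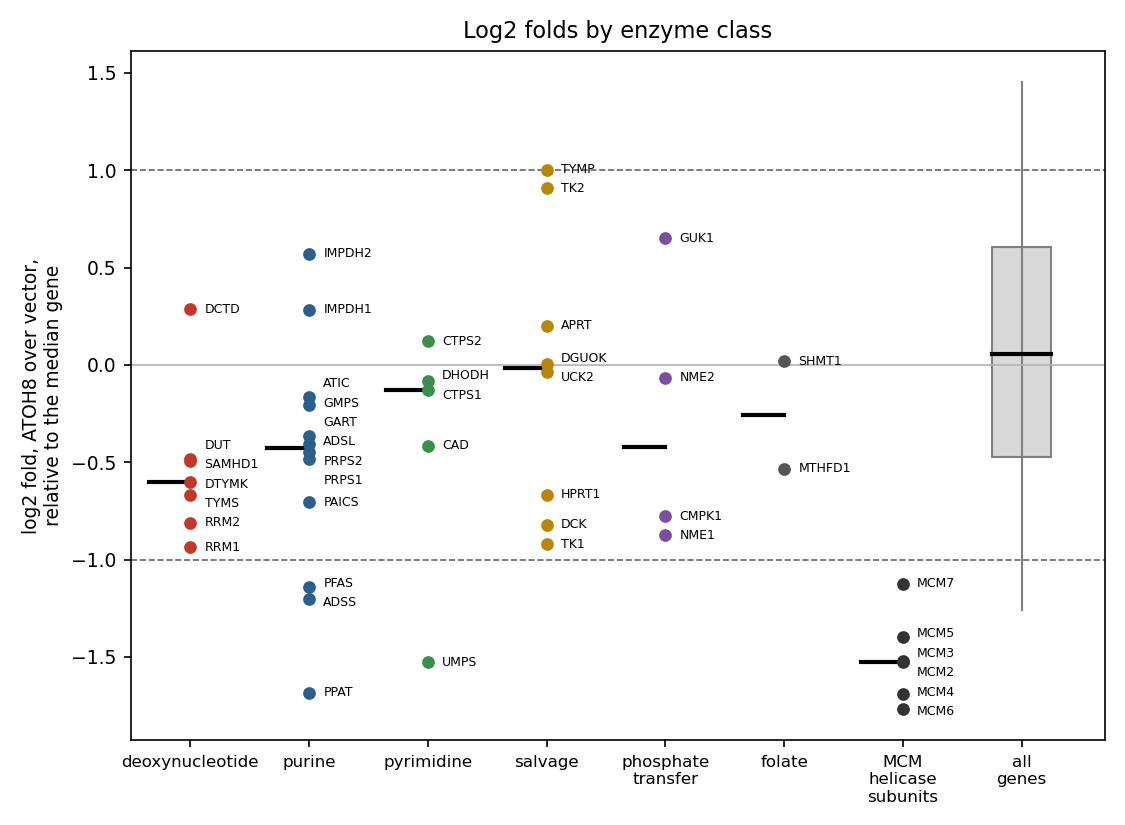
Relative log2 fold, ATOH8 cells over vector cells, of the 38 enzymes by class and of the 6 MCM subunits, with 1 point per gene, a black bar at the class median and dashed lines at 2-fold. The class medians are -0.60 for deoxynucleotide, -0.43 for purine, -0.13 for pyrimidine and -0.02 for salvage enzymes, and the box and line for all genes show the middle 50% and the 5th to 95th percentile.

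In purine synthesis 10 of 12 genes lay below the median gene, against 47.0% of all genes. As deposited 11 of 12 had a fold below 0, against 64.7% of all genes. On the relative scale 3 of the 12 were past 2-fold downward, against 9.46% of all genes, out of 4 such members in all classes. The median relative fold of the class was -0.43, and the summed level was 504 FPKM in ATOH8 cells and 759 FPKM in vector cells. PRPS1 and PRPS2 make the activated ribose phosphate, and their relative folds were -0.48 and -0.45. PRPS1 was at 38.8 FPKM in ATOH8 cells and 70.3 FPKM in vector cells, and PRPS2 was at 17.4 FPKM in ATOH8 cells and 31.1 FPKM in vector cells. All 6 enzymes of the route to IMP were below the median gene, with a median of -0.56. PPAT, which catalyses the committed first step, was at 2.74 FPKM in ATOH8 cells and 14.4 FPKM in vector cells, a relative fold of -1.68, and 1.52% of tested genes had a lower fold. PFAS, which adds an amide nitrogen, was at 9.70 FPKM in ATOH8 cells and 29.2 FPKM in vector cells, a relative fold of -1.14. PAICS, with 2 consecutive activities, was at 54.0 FPKM in ATOH8 cells and 114.1 FPKM in vector cells, a relative fold of -0.71. The other 3 enzymes of the route had smaller folds than these. GART, which serves 3 steps of the route, was at 26.5 FPKM in ATOH8 cells and 44.5 FPKM in vector cells. ADSL, shared with AMP synthesis, was at 30.9 FPKM in ATOH8 cells and 53.4 FPKM in vector cells. ATIC, which closes the ring, was at 126.6 FPKM in ATOH8 cells and 182.5 FPKM in vector cells, a relative fold of -0.17.

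After IMP the route divides into an AMP and a GMP branch. ADSS, which starts the AMP branch, was at 10.8 FPKM in ATOH8 cells and 33.9 FPKM in vector cells, a relative fold of -1.20. In the GMP branch, IMPDH2 was at 127.5 FPKM in ATOH8 cells and 109.95 FPKM in vector cells, a relative fold of 0.57. IMPDH1, its paralogue, was at 29.2 FPKM in ATOH8 cells and 30.8 FPKM in vector cells, a relative fold of 0.28, and GMPS, which finishes GMP, was at 29.8 FPKM in ATOH8 cells and 44.5 FPKM in vector cells. Among the members alone, ADSS and the IMPDH genes stood on different sides of the median gene. ADSSL1, a paralogue of ADSS that is not a member, had a relative fold of 3.06. The sum of ADSS and ADSSL1 was 53.8 FPKM in ATOH8 cells and 39.7 FPKM in vector cells, so the contrast did not hold for the step. IMPDH1 lay below 0 as deposited, at -0.08, and after GC correction, at -0.32, while IMPDH2 stayed above 0, at 0.21 and 0.28. GMPS, at -0.21 on the relative scale, was at 0.24 after GC correction. After the correction for GC content, described further on, PPAT had a fold of -0.90 and ADSS of -0.84, so both fell short of 2-fold, and PFAS was at -1.63; with a pseudocount of 5, PFAS was at -0.94. The PFAS locus in the file also spans CTC1, and that of PPAT spans an unnamed transcript, while that of ADSS spans no other gene. In GENCODE 29 (GRCh38), all 3 are protein-coding: PPAT (ENSG00000128059) lies at chr4:56393362-56435615 on the minus strand, PFAS (ENSG00000178921) at chr17:8247618-8270491 on the plus strand and ADSS (ENSG00000035687) at chr1:244408494-244452134 on the minus strand.

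The sequences upstream of the members past 2-fold downward are shown as stretches before a start site given by RefSeq, GRCh38.p14. The PFAS stretch precedes a RefSeq start that lies inside the longer GENCODE gene. PPAT and PAICS are transcribed away from each other, and the printed stretch of 125 bases, chr4:56435616-56435740 on the minus strand, is all of the sequence between them. It is shared, while the relative folds of the pair were -1.68 and -0.71. PFAS is shown at chr17:8249039-8249285 (plus), ADSS at chr1:244452135-244452310 (minus) and UMPS at chr3:124730202-124730365 (plus). Capitals mark matches to a GC box, GGGCGG, or to the letters TTTGAA, on either strand. TTTGAA was in the windows of 11.1% of the members, against 18.2% of the 27305 genes with windows, and GGGCGG in 80.6%, against 48.3%. These 27305 genes were not limited to the tested genes.
PPAT: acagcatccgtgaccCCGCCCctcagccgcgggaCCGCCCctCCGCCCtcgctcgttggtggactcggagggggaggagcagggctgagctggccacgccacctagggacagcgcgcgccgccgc
PFAS: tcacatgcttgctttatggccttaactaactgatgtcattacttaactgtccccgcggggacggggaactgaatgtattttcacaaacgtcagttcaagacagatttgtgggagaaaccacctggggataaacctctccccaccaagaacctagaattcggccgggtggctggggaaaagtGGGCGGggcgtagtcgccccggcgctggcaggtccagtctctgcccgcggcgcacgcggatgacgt
ADSS: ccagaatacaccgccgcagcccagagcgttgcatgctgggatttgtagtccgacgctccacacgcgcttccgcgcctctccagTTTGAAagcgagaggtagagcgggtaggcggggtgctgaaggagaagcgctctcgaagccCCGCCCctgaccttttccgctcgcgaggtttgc
UMPS: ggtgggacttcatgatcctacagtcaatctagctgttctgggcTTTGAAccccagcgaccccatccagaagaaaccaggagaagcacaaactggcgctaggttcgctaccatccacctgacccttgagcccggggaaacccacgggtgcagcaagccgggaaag

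Pyrimidine synthesis was uneven, with a class median of -0.13. On the relative scale 1 of 5 genes was at least 2-fold lower, against 9.46% of all genes. UMPS, which joins orotate to the ribose phosphate and makes UMP, was at 7.09 FPKM in ATOH8 cells and 28.9 FPKM in vector cells, a relative fold of -1.53. It was the 1 member at least 2-fold lower in all 8 processing alternatives, with folds from -1.89 to -1.21, and its locus in the file spans no other gene. Of these 8, taking the highest row of a shared symbol could not change any member, since each had 1 row. UMPS (ENSG00000114491) is protein-coding and lies at chr3:124730366-124749273 on the plus strand in GENCODE 29 (GRCh38). CAD, which carries the first 3 steps, was at 14.6 FPKM in ATOH8 cells and 25.6 FPKM in vector cells, a relative fold of -0.42. DHODH, the mitochondrial step between them, was at 3.80 FPKM in ATOH8 cells and 5.51 FPKM in vector cells, a relative fold of -0.08. The first steps of the route thus lay closer to the median gene than the last one. After GC correction CAD was at -0.89, DHODH at -0.40 and UMPS at -1.62, and the class median was -0.40. CTPS1, which makes CTP and is known for its part in lymphocyte proliferation, was at 55.5 FPKM in ATOH8 cells and 78.2 FPKM in vector cells, with relative folds of -0.13 and, after GC correction, 0.13. CTPS2 was at 6.72 FPKM in ATOH8 cells and 8.11 FPKM in vector cells.

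Salvage enzymes were split, 4 of 8 below the median gene and 4 above it, with a class median of -0.02. As deposited 6 of 8 were below 0, against 64.7% of all genes. TK1, the cytosolic thymidine kinase, was at 45.3 FPKM in ATOH8 cells and 111.2 FPKM in vector cells, a relative fold of -0.92 that was -1.52 after GC correction. DCK, which phosphorylates deoxycytidine and activates gemcitabine and cytarabine, was at 6.60 FPKM in ATOH8 cells and 16.2 FPKM in vector cells, a relative fold of -0.82 that was -0.23 after GC correction. HPRT1, which salvages hypoxanthine and guanine, was at 41.0 FPKM in ATOH8 cells and 84.6 FPKM in vector cells, a relative fold of -0.67. These 3 of the 8 were each at least 2-fold lower as deposited, against 19.0% of all genes. The other 5 lay close to the median gene or above it. APRT, which salvages adenine, was at 81.7 FPKM in ATOH8 cells and 91.2 FPKM in vector cells, a relative fold of 0.20 that turned to -0.16 as deposited and -0.41 after GC correction. UCK2, the uridine and cytidine kinase, was at 48.0 FPKM in ATOH8 cells and 63.4 FPKM in vector cells. DGUOK, the mitochondrial deoxyguanosine kinase, was at 54.7 FPKM in ATOH8 cells and 70.3 FPKM in vector cells, at the median gene. The 2 genes above the median by the widest margin were a mitochondrial kinase and a catabolic enzyme. TK2, the mitochondrial thymidine kinase, was higher in ATOH8 cells, at 9.40 FPKM against 6.11 FPKM in vector cells, a relative fold of 0.91. TYMP, which breaks thymidine down, was at 2.10 FPKM in ATOH8 cells and 0.985 FPKM in vector cells, a relative fold of 1.00. TYMP lay at the 2-fold line and was within it in 6 of 8 alternatives, and its locus in the file spans ODF3B and SCO2. Of the other 2 alternatives, the highest row of a shared symbol could not change TYMP, which had 1 row. Without the 5 salvage genes whose locus spans another gene, the class median was -0.67, over TK1, HPRT1 and APRT.

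Phosphate transfer enzymes, which turn monophosphates into di- and triphosphates, were below the median gene in 3 of 4 cases, against 47.0% of all genes. CMPK1, the UMP and CMP kinase, was at 23.2 FPKM in ATOH8 cells and 52.2 FPKM in vector cells, a relative fold of -0.78. GUK1, the guanylate kinase, was at 58.6 FPKM in ATOH8 cells and 47.7 FPKM in vector cells, a relative fold of 0.65. After GC correction both lay near 0, with CMPK1 at -0.14 and GUK1 at 0.08. NME1, a nucleoside diphosphate kinase, was at 120.2 FPKM in ATOH8 cells and 283.9 FPKM in vector cells, a relative fold of -0.87. NME2, its neighbour on chromosome 17, was the most abundant member, at 648 FPKM in ATOH8 cells and 870 FPKM in vector cells. The NME1 and NME2 rows share a locus string with each other and with a readthrough row, NME1-NME2, at 4.30 FPKM in ATOH8 cells and 6.41 FPKM in vector cells, so reads could be split among them. The 2 folate enzymes of the set supply one-carbon units to purine and thymidylate synthesis. MTHFD1 was at 45.7 FPKM in ATOH8 cells and 85.7 FPKM in vector cells, and SHMT1 was at 22.5 FPKM in ATOH8 cells and 28.7 FPKM in vector cells, at relative folds of -0.53 for MTHFD1 and 0.02 for SHMT1, which was at -0.28 after GC correction.

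Pairs of enzymes with related reactions, 12 in all, were compared after their values had been seen, and are a description only. The ratio of TK1 to TK2 was 4.82 in ATOH8 cells and 18.2 in vector cells, and that of DCK to DGUOK was 0.121 in ATOH8 cells and 0.231 in vector cells. In both, the ratio of the cytosolic or nuclear kinase to the mitochondrial one was lower in ATOH8 cells, but after GC correction DCK, at -0.23, and DGUOK, at -0.17, lay close together, while TK1 was at -1.52 and TK2 at 0.67. Among the synthetic pairs, RRM1 to RRM2 was 1.16 in ATOH8 cells and 1.27 in vector cells, and PRPS1 to PRPS2 was 2.23 in ATOH8 cells and 2.26 in vector cells. The ratio of ADSS to its muscle-type paralogue ADSSL1 was 0.252 in ATOH8 cells and 5.86 in vector cells, with ADSSL1 at 43.0 FPKM in ATOH8 cells and 5.78 FPKM in vector cells. ADSSL1 thus made up 79.9% of the summed level of both in ATOH8 cells and 14.6% in vector cells, and that sum was 53.8 FPKM in ATOH8 cells and 39.7 FPKM in vector cells. The lower level of ADSS therefore did not extend to the sum over the paralogues that catalyse the step. Of the cytosolic and mitochondrial folate pairs, MTHFD1 to MTHFD2 was 1.25 in ATOH8 cells and 0.684 in vector cells, and SHMT1 to SHMT2 was 0.361 in ATOH8 cells and 0.370 in vector cells.

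**Figure D3:**
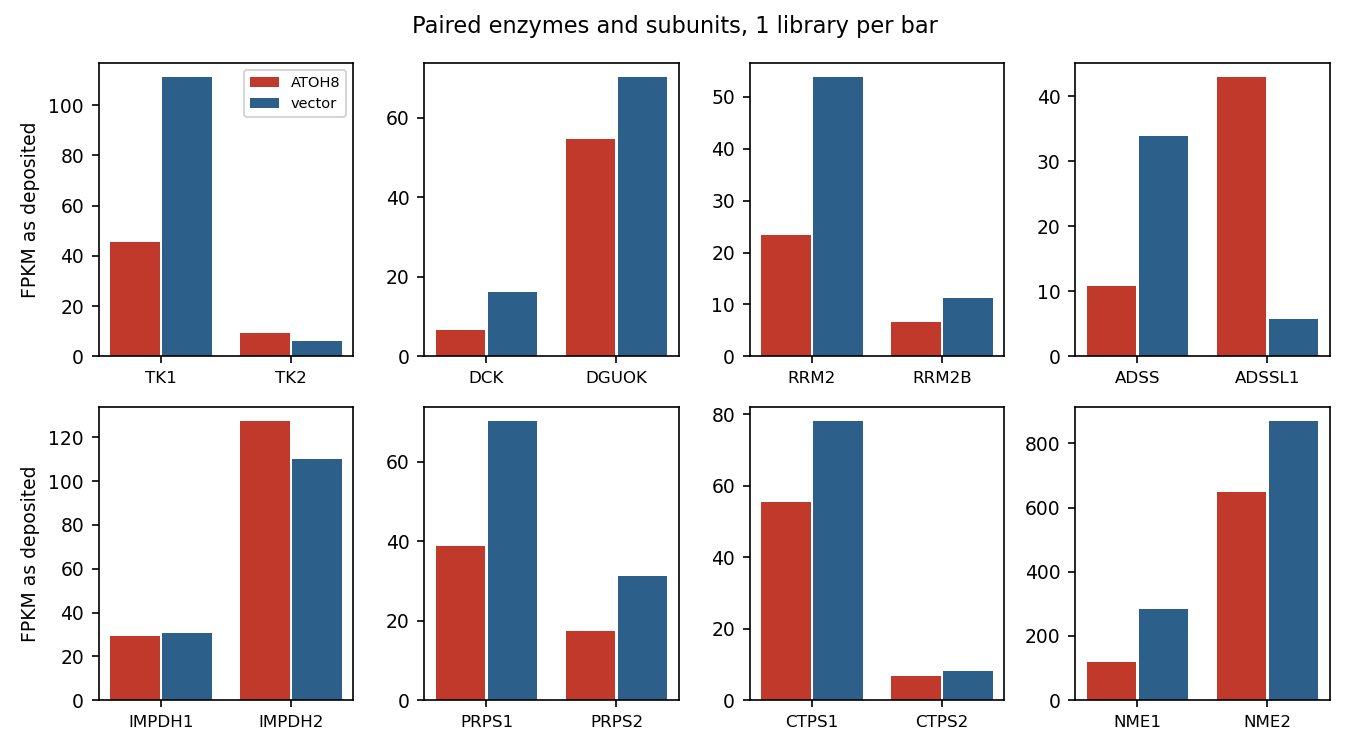
Levels in FPKM as deposited of 8 pairs of enzymes or subunits, with 1 bar per library, ATOH8 cells beside vector cells, linear axes from 0 that differ between panels, and no error bars. The 1 pair of these 8 that changes order is ADSS and ADSSL1, where ADSSL1 is at 43.0 FPKM in ATOH8 cells and 5.78 FPKM in vector cells.

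Folds in these libraries followed the GC content of the transcript. Spearman's rho between GC content and the fold as deposited was 0.55 over 12313 genes and 0.50 over the 38 members (Pearson's r 0.51 and 0.49), across genes that share both libraries and are not independent replicates. PPAT had the lowest GC content of the 38, at 33.8%, and TK1 was among the highest, at 62.8%. After subtraction of a lowess trend on GC content, the median of the members was -0.36, against 0.00 over all genes. Below 0 were 31 of 38 members, against 49.96% of all genes. At least 2-fold lower were 4 members, UMPS, PFAS, TK1 and DTYMK, against 5.94% of all genes, and 0 members were at least 2-fold higher, against 8.33%. UMPS and PFAS were shared with the count without correction. TK1 was at -1.52 and DTYMK at -1.13 after correction, while DCK was at -0.23, HPRT1 at -0.19 and CMPK1 at -0.14. Which single genes passed 2-fold thus turned on the correction, and the sign of the class medians of deoxynucleotide, purine and pyrimidine enzymes did not. The salvage median was -0.02 without the correction, too near 0 to give a direction, and -0.20 with it. The order of the medians did change, with pyrimidine at -0.40 and purine at -0.37 after the correction.

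**Figure D4:**
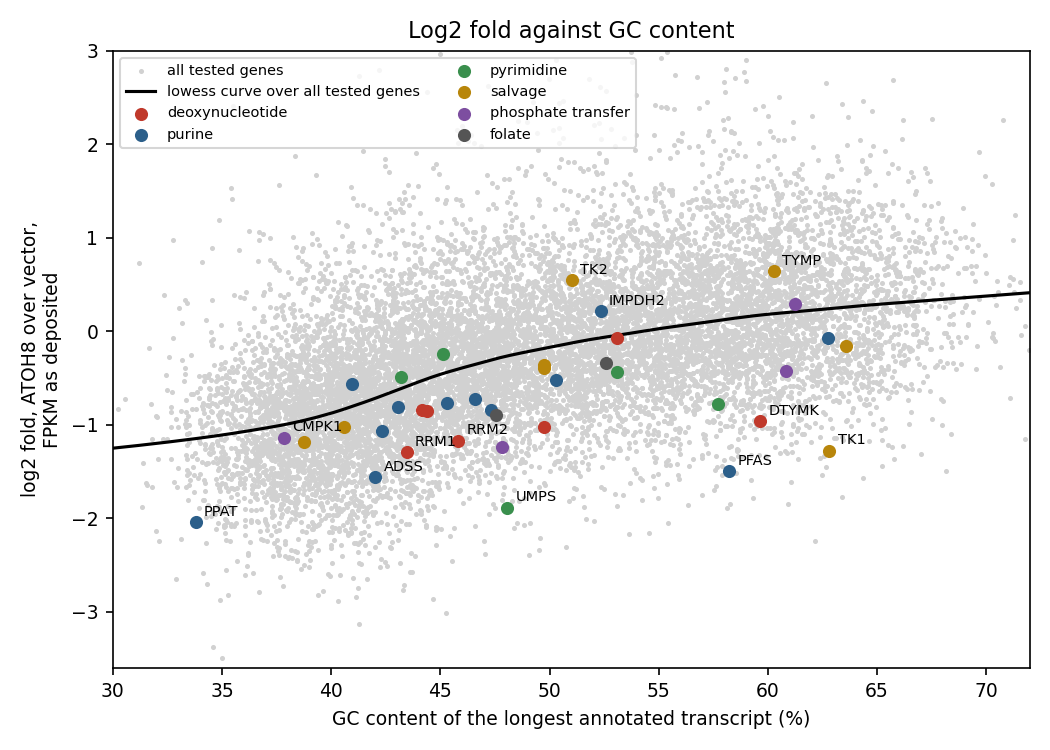
Log2 fold as deposited, ATOH8 cells over vector cells, against GC content of the longest transcript in percent, with the 38 members over all tested genes and the lowess trend. Genes beyond the axes are not drawn. PPAT at 33.8% GC, UMPS at 48.1% and TK1 at 62.8% all lie below the curve.

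Windows of 300 bases at the start sites, from 250 before to 50 after, were read for 36 of the 38 members. An E2F-type match (TTTCCCGC, TTTCGCGC, TTTGCCGC or TTTGGCGC) was in 5 members, TYMS, DUT, PRPS2, GART and DCK, or 13.9%, against 3.99% of 27305 genes. The E-box CACGTG was in 7 members, PPAT, PAICS, ATIC, DHODH, DCK, NME1 and MTHFD1, or 19.4%, against 8.77% of genes. The E-box CAGATG, the type bound by atonal-family factors, was in 5 members, or 13.9%, against 17.5% of genes, and CAGCTG was in 4, or 11.1%, against 21.1%. CCAAT was in 15 members, or 41.7%, against 39.7% of genes, and TTTGAA was in 4, or 11.1%, against 18.2%. The GC box GGGCGG was in 29 members, or 80.6%, against 48.3%. Both strands were searched, no motif searched contains another, and a match describes letters in the window, not a bound site. The 27305 genes were all those with windows and were not limited to the tested genes, the background of the folds. A gene counted if any of its windows held a match. The 36 members had 54 windows and the 27305 genes had 35116, so members had more windows per gene. Whether the differences in share are particular to these enzymes was not tested. Members with E2F-type matches had relative folds from -0.82 for DCK to -0.37 for GART, and none of them was among the 4 past 2-fold downward.

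Another 59 genes around these pathways were listed, of which 50 passed the filter. Their median relative fold was 0.05, with 5 past 2-fold downward and 6 upward, close to the 9.46% and 12.8% of all genes. After GC correction 5 were past 2-fold downward and 5 upward, against 5.94% and 8.33% of all genes. In folate metabolism, 3 of 10 were at least 2-fold lower and 1 was higher. MTHFD2, of the mitochondrial one-carbon route, was at 36.5 FPKM in ATOH8 cells and 125.2 FPKM in vector cells. Its relative fold was -1.39, and -0.98 after GC correction. GGH, which trims folate polyglutamates, was at 11.7 FPKM in ATOH8 cells and 59.1 FPKM in vector cells, and MTHFS, which recycles a folate, was at 16.4 FPKM in ATOH8 cells and 44.1 FPKM in vector cells. FPGS, which adds the polyglutamates, was at 34.7 FPKM in ATOH8 cells and 18.8 FPKM in vector cells. The enzymes that trim and add folate polyglutamates thus stood on different sides of the median gene, with FPGS at 1.21 and, after GC correction, 0.59. Around the deoxynucleotide pool, CDA, which deaminates cytidine and gemcitabine, was at 47.7 FPKM in ATOH8 cells and 10.1 FPKM in vector cells, and NT5M was at 9.38 FPKM in ATOH8 cells and 5.44 FPKM in vector cells. Beside CDA at a relative fold of 2.50, DCK, the kinase that activates gemcitabine, was at -0.82, and after GC correction CDA was at 2.04 and DCK at -0.23. After the same correction NT5M was at 0.39, within 2-fold. In purine interconversion, ADA, adenosine deaminase, was at 31.2 FPKM in ATOH8 cells and 15.2 FPKM in vector cells, and AK6 was at 6.95 FPKM in ATOH8 cells and 36.1 FPKM in vector cells. Among kinases and transporters, NME7 was at 6.48 FPKM in ATOH8 cells and 20.2 FPKM in vector cells, and SLC29A3, a nucleoside transporter, was at 7.48 FPKM in ATOH8 cells and 2.98 FPKM in vector cells. After GC correction both were within 2-fold, at -0.39 for NME7 and 0.94 for SLC29A3. In pyrimidine salvage and breakdown 0 of 7 passed 2-fold on the relative scale, where DPYD had the largest fold, 0.89, at 2.22 FPKM in ATOH8 cells and 1.23 FPKM in vector cells. After GC correction DPYD was at 1.35, past 2-fold. As deposited NT5C3A was past 2-fold, at -1.20, and the authors' deposited table marked it down. NT5C3A was at -0.84 on the relative scale and at -0.12 after GC correction.

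**Figure D5:**
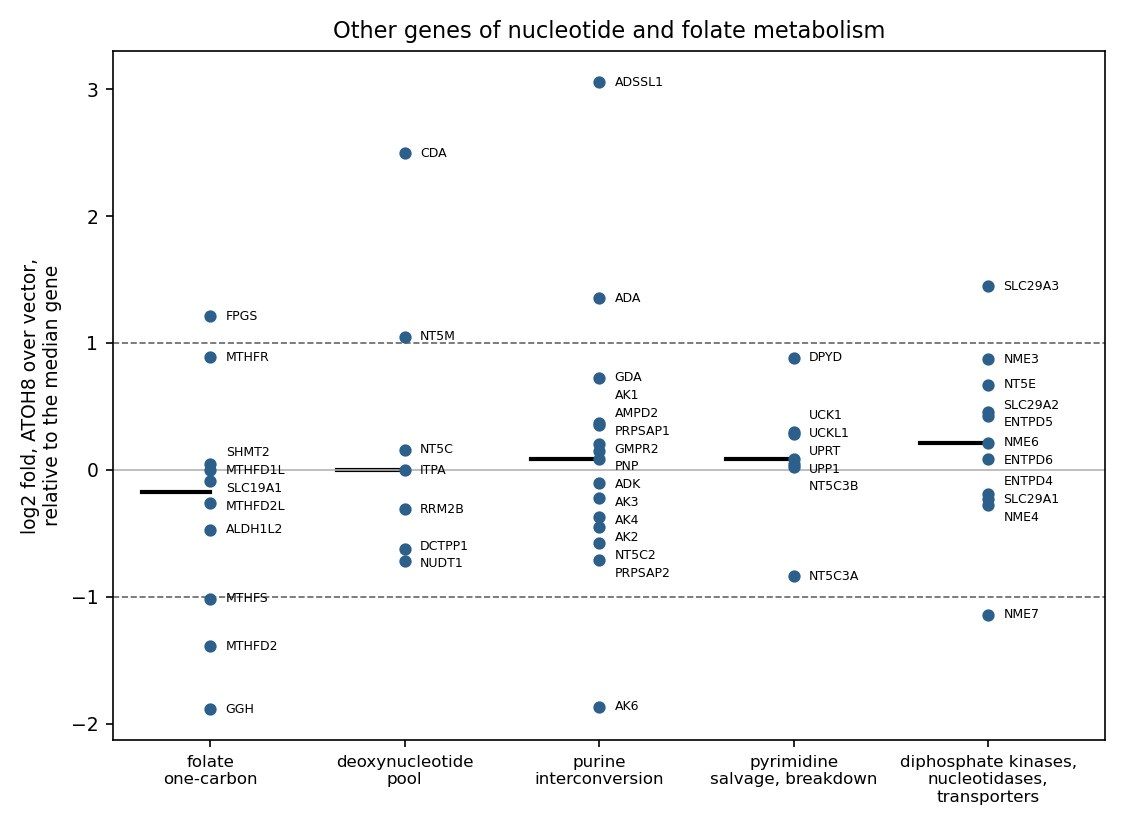
Relative log2 folds, ATOH8 cells over vector cells, of 50 genes around the nucleotide pathways, by list, with black bars at the list medians and dashed lines at 2-fold. ADSSL1 at 3.06 and CDA at 2.50 lie highest, and GGH at -1.88 lies lowest.

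The authors' deposited table of differential genes marked 4 of the 38 members down and 0 up, against 14.7% and 5.16% of the 12342 tested genes. In the authors' deposited table UMPS had a log2 ratio of -2.03 and a q-value of 3.52e-09, and PPAT had -2.40 and 0.00560. PFAS had -1.59 and 0.00142 in the authors' deposited table, and DCK had -1.30 and 0.00641. Neither ADSS nor RRM1, at ratios of 0.319 and 0.399 of the vector level, was listed there. In the authors' deposited table ADSSL1 was marked up with a q-value of 1.33e-09, and all 6 MCM subunits were marked down. These q-values compare the 2 libraries and carry no spread between cultures.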

How the data were processed

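Per the labels, total RNA of 1 ATOH8-transduced and 1 vector-transduced A549 culture was sequenced. The authors deposited FPKM per gene for each library, per the file headers; no 0 is listed, so genes absent from a file were not used. The submitters' processing notes name CASAVA, HISAT2, Cufflinks 2.2.1 and hg38 (GRCh38). Annotation release, strand setting, read filters and depth: not given in the sources used here. No counting interval can therefore be stated. The authors deposited a comparison with log2 ratios, p-values and q-values, per the file headers; its 2 columns of per-library values match no label and were not used. Its log2 ratios had the direction of ATOH8 over vector in all 2728 genes found in both files.

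Rows sharing a symbol were summed. Folds used a pseudocount of 1, which understates changes of low genes, and genes with a mean of at least 1 FPKM. No test was run, and a rule of size of 2-fold was used. GC content came from the longest transcript in GENCODE 29 (GRCh38), and the correction subtracted a lowess curve (fraction 0.3). Of the 38 members, 17, against 53.3% of tested genes, share a locus string with another gene, and 13 members have annotated pseudogenes. Promoter windows are from RefSeq GRCh38.p14, matched by symbol. The calculations were checked on simulated data and run in Python 3.11.15 with pandas 2.3.3, numpy 2.4.6, scipy 1.17.1 and statsmodels 0.14.6.

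The members, the gene lists and the alternatives were chosen with earlier results of these data known. Named are all 38 members, the members of each wider list at least 2-fold from the median gene or else the 1 with the largest fold, and the MCM subunits. The 12 pairs were chosen after their values were seen. Some genes of the wider lists are not reported here and were left out of those lists' counts.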

Additional observations from a re-analysis of the deposited data

How the results depend on the processing

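The number of members at least 2-fold lower was 4 relative to the median gene, 13 with the FPKM as deposited, 10 as TPM and 2 without the members whose locus spans another gene. It was 3 to 6 under the other alternatives, and the median of all members stayed below 0 in each. The total used for TPM included MT-CO1 for the vector library only. TYMP, the 1 member at least 2-fold higher, gave a count of 0 with a pseudocount of 5, with the FPKM as deposited, as TPM, with upper quartile scaling, with the total taken without mitochondrial genes, after GC correction, at a mean of at least 5 FPKM and without members whose locus spans another gene. The salvage median, -0.02, was 0.0046 with a pseudocount of 0.1, 0.0016 with upper quartile scaling and -0.67 without the members whose locus spans another gene, so its sign near 0 carries no direction. The deoxynucleotide, purine and pyrimidine medians kept their sign in every alternative; the phosphate transfer and folate medians were not recomputed except as deposited and after GC correction. No paired analysis was possible because each group has 1 library. With no replicates and no depth in the files, neither the spread between cultures nor the counting error of low genes such as TYMP, SAMHD1 and PPAT can be given.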
